A study of Homo sapiens with 4 samples.

Results

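The genes described here are 9 genes of HLA class I and antigen processing, chosen by name: HLA-B, HLA-C, HLA-E, HLA-F, B2M, TAP1, TAP2, TAPBP and NLRC5. All 9 were found by gene symbol among the 56303 features of the deposited count table, and all 9 were among the 19210 features that reached 10 counts in 2 or more libraries and were compared. The libraries came from the hepatocellular carcinoma line Huh7, in 2 cultures: one transfected with a plasmid hairpin directed at RBM39 (shRBM39), which encodes a splicing factor that binds RNA, and one labelled shControl. Each culture gave 1 library of RNA recovered with an RBM39 antibody (the IP) and 1 library of the RNA before recovery (the input). The groups were thus the shRBM39 IP, the shControl IP, the shRBM39 input and the shControl input, with 1 library each. No library was an IP with a control antibody among those analysed here, so a ratio of IP over input includes recovery that does not depend on RBM39. Neither the clonality of the cells nor the hairpin sequence is given in the sources used here.

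HLA class I molecules display peptides from inside the cell to cytotoxic T cells. A heavy chain, encoded by HLA-B, HLA-C, HLA-E or HLA-F among others, pairs with the invariant light chain B2M. The peptides are carried into the endoplasmic reticulum by the transporter TAP1-TAP2 and loaded with the help of tapasin (TAPBP). NLRC5 is the coactivator of class I genes: it has no DNA-binding domain of its own and acts through the RFX complex (RFX5, RFXAP and RFXANK), CREB/ATF factors and NF-Y bound to a shared promoter module. Hepatocytes normally carry low levels of class I, which interferon raises.

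The promoters are shown because of that module, though the 9 genes were chosen by name and not by a match to it. RefSeq promoter sequences on GRCh38.p14 were matched for 7 of the 9 genes, all but HLA-E and NLRC5. Each line below runs from 190 bases to 1 base before the annotated start, 5′ to 3′ on the gene's own strand. Capitals mark matches on either strand to 4 motifs: the NF-kB consensus, the IRF core AANNGAAA, the CRE core TGACG and the letters CCAATCA, with overlapping matches joined. Y box is used here as a name for CCAATCA only. The shorter letters CCAAT also occur on the opposite strand, before CCAATCA and without capitals, in the HLA-B, HLA-C and HLA-F lines. They were not searched, and which of these sites is the Y box of the module was not tested.
HLA-B (minus strand, chr6:31357180-31357369): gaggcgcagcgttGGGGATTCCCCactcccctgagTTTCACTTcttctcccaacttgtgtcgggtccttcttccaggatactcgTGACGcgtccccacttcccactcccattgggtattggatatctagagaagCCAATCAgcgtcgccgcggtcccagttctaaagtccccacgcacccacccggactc
HLA-C (minus strand, chr6:31272093-31272282): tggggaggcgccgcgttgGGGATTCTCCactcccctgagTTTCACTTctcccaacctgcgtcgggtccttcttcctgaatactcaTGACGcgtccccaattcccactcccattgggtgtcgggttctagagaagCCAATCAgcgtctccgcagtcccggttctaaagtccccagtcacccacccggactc
HLA-F (plus strand, chr6:29723244-29723433): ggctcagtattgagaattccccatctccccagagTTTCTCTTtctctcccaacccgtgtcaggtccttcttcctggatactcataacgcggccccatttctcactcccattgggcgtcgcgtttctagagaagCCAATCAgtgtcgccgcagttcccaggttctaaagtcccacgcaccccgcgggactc
B2M (plus strand, chr15:44711327-44711516): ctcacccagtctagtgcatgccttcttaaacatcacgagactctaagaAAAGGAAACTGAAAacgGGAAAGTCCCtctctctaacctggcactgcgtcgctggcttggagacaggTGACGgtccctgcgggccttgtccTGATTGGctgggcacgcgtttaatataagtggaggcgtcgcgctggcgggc

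Over the 250 bases before the start, HLA-B and HLA-C were identical in 89.0% of aligned positions, HLA-B and HLA-F in 80.4%, and HLA-C and HLA-F in 78.7%. B2M aligned with HLA-B at 49.5% identity, close to the 47.3% to 51.9% seen among the promoters that are not HLA genes. In HLA-B the order from the far end was NF-kB, IRF, CRE and CCAATCA, at positions -177, -155, -106 and -56. HLA-C had the same order at -172, -151, -105 and -56. HLA-F kept the IRF core and CCAATCA, at -156 and -57, and no match to the other 2 motifs was found in its window. B2M had the IRF core first, at -142, then NF-kB at -125, the CRE core at -75 and CCAATCA on the opposite strand at -51.

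Of the 7 promoters searched over 300 bases, 7 held the IRF core, 5 the NF-kB consensus, 4 the CRE core and 4 the Y box. In all 34796 promoters of the same length the shares were 22.9%, 11.3%, 24.5% and 6.96%. The IRF core, CRE core and Y box stood together in HLA-B, HLA-C and B2M and in 0.362% of all promoters. TAP1, TAP2 and TAPBP had no match to CCAATCA. The letters GTTGCC, which form each arm of the palindromic RFX site, were in none of the 7 windows and in 12.2% of all promoters. Only these exact letters were searched, so an RFX site with other letters would be missed. Whether the 7 promoters hold such a site was not tested. The motifs were picked with these sequences in view, and a match is a string of letters, not a shown binding site.

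**Figure D1:**
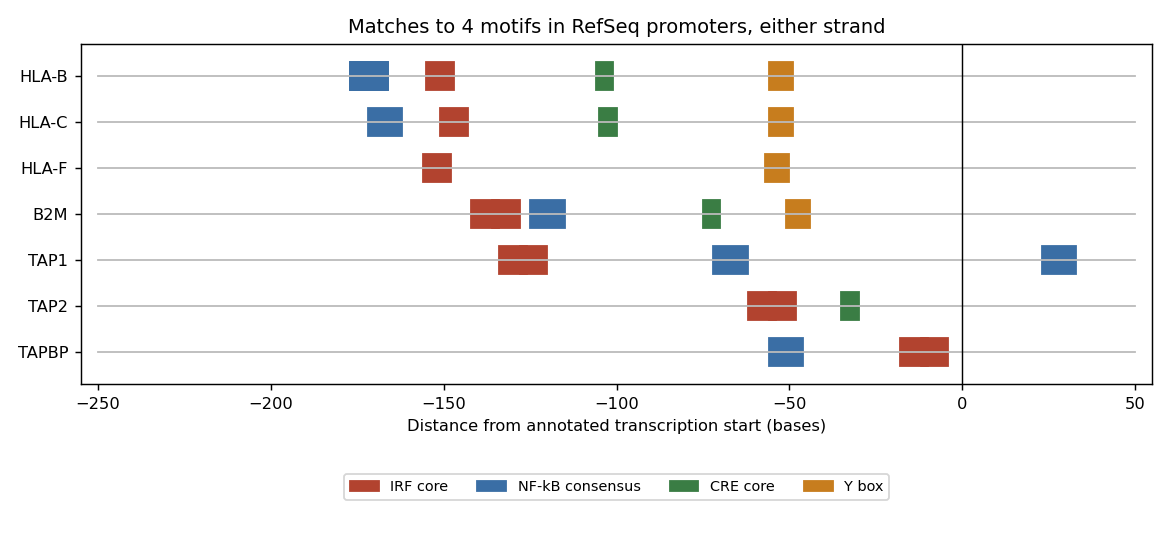
Positions of matches to the IRF core, NF-kB consensus, CRE core and Y box in the 7 promoters, in bases from the annotated start (vertical line). HLA-B and HLA-C share 1 layout, HLA-F has 2 of its 4 motifs, and TAP1, TAP2 and TAPBP have no match to CCAATCA, the letters drawn as Y box.

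Total counts ran from 20858382 to 45812488 per library. Levels below are TMM-scaled CPM (counts divided by the scaled size of their library), and are compared within a gene, not between genes. A ratio is called higher or lower when it passes 2-fold, or 1 on the log2 scale, and its 95% counting interval does not include equality. With 1 library per group these comparisons have no replicate check and no p-value, and the intervals, given in parentheses on the log2 scale, cover counting error only. Of the counts from 3 to 6, 71.4% to 75.6% were even, as when both mates of a pair are counted, so the intervals are too narrow; calls among the 9 genes that end with halved counts are named, and calls of other genes on few counts were not put to that check. RBM39 itself, the target of the hairpin, had 8053 counts in the shRBM39 input and 8701 in the shControl input, a log2 ratio of -0.13 (-0.17 to -0.08), so the knockdown was barely visible in input RNA. In the IPs it ran against the label: RBM39 stood at 2219 CPM in the shRBM39 IP and 1035 CPM in the shControl IP, and the difference of IP over input was 1.23 (1.18 to 1.27), called higher. In what follows, shRBM39 therefore means the library labelled shRBM39, and every direction drawn from it, in the IPs above all, rests on that label. All 16 hepatocyte markers reached 10 counts in some library, and their summed level was 13990 CPM in the shRBM39 input and 15613 CPM in the shControl input. Of 16 leukocyte markers, 10 stayed under 10 counts in every library, and the defining marker PTPRC had 2 counts in the shRBM39 input and 0 elsewhere; their summed 292 CPM in the shRBM39 input and 414 CPM in the shControl input came nearly all from LYZ, with 5947 and 8540 counts in these inputs.

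The first question was how these transcripts differed between the inputs of the cultures. The heavy-chain genes HLA-B, HLA-C and HLA-F were lower in shRBM39 cells by 2.16-fold to 3.26-fold, whereas the light chain B2M and both TAP subunits differed little. In all, 3 of the 9 genes were called lower, against 5.74% of all features compared, and 1, NLRC5, was called higher, against 5.1%. The genes were chosen with earlier results of these data known, so the comparison with all features is descriptive only. The median log2 ratio of the 9 genes was -0.71 and that of all 19210 features -0.01. In bulk RNA, fewer expressing cells and less RNA per cell cannot be told apart.

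HLA-B (chromosome 6, 31353875 to 31357179), a classical heavy chain, had 63 counts in the shRBM39 input and 145 in the shControl input, or 2.89 and 6.72 CPM. Its log2 ratio was -1.21 (-1.67 to -0.78). HLA-C (chromosome 6, 31268749 to 31272092), the classical heavy chain that is a main ligand of inhibitory killer-cell receptors, had 264 counts in the shRBM39 input and 566 in the shControl input, or 12.1 and 26.2 CPM. Its log2 ratio was -1.11 (-1.33 to -0.90). Both genes stood at less than 0.47 times their shControl level, and both calls held with halved counts.

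HLA-E (chromosome 6, 30489509 to 30494194), the non-classical heavy chain read by the receptor NKG2A on natural killer cells, had 386 counts (17.7 CPM) in the shRBM39 input and 628 (29.1 CPM) in the shControl input. The log2 ratio of -0.71 (-0.90 to -0.53) lay below 0 but did not reach 2-fold. HLA-F (chromosome 6, 29723434 to 29738532), a non-classical heavy chain also found in an open form without peptide, was the sparsest of the 4, with 17 counts (0.781 CPM) in the shRBM39 input and 56 (2.60 CPM) in the shControl input. Its log2 ratio was -1.70 (-2.61 to -0.93), and the call held with halved counts (-3.04 to -0.59). All 4 heavy chains were thus lower in number in the shRBM39 input, 3 of them past 2-fold.

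B2M (chromosome 15, 44711517 to 44718145) had 1316 counts (60.4 CPM) in the shRBM39 input and 1150 (53.3 CPM) in the shControl input, a log2 ratio of 0.18 (0.07 to 0.30). TAP1 (chromosome 6, 32845209 to 32853704) had 34 counts in each input, for a log2 ratio of -0.01 (-0.74 to 0.72). TAP2 (chromosome 6, 32821831 to 32838739) had 322 counts (14.8 CPM) in the shRBM39 input and 302 (14.0 CPM) in the shControl input, a log2 ratio of 0.08 (-0.15 to 0.31). None of these 3 was called, and the TAP1 interval still includes changes of over 1.6-fold either way.

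TAPBP (chromosome 6, 33299694 to 33314078), the bridge between TAP and the empty heavy chain, had 332 counts (15.2 CPM) in the shRBM39 input and 572 (26.5 CPM) in the shControl input. Its log2 ratio of -0.80 (-0.998 to -0.60) was near that of HLA-E and short of 2-fold. The annotated end of TAPBP overlaps RGL2, which had 87 counts in the shRBM39 input and 106 in the shControl input, so some reads could be shared. NLRC5 (chromosome 16, 56989557 to 57083520) had 10 counts in the shRBM39 input and 2 in the shControl input. Its ratio, 4.16 (log2 2.06, 0.08 to 5.54), went the other way from the heavy chains, but it rests on 12 counts and was not called with halved counts (-0.85 to 7.87) or with libraries scaled to total counts.

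**Figure D2:**
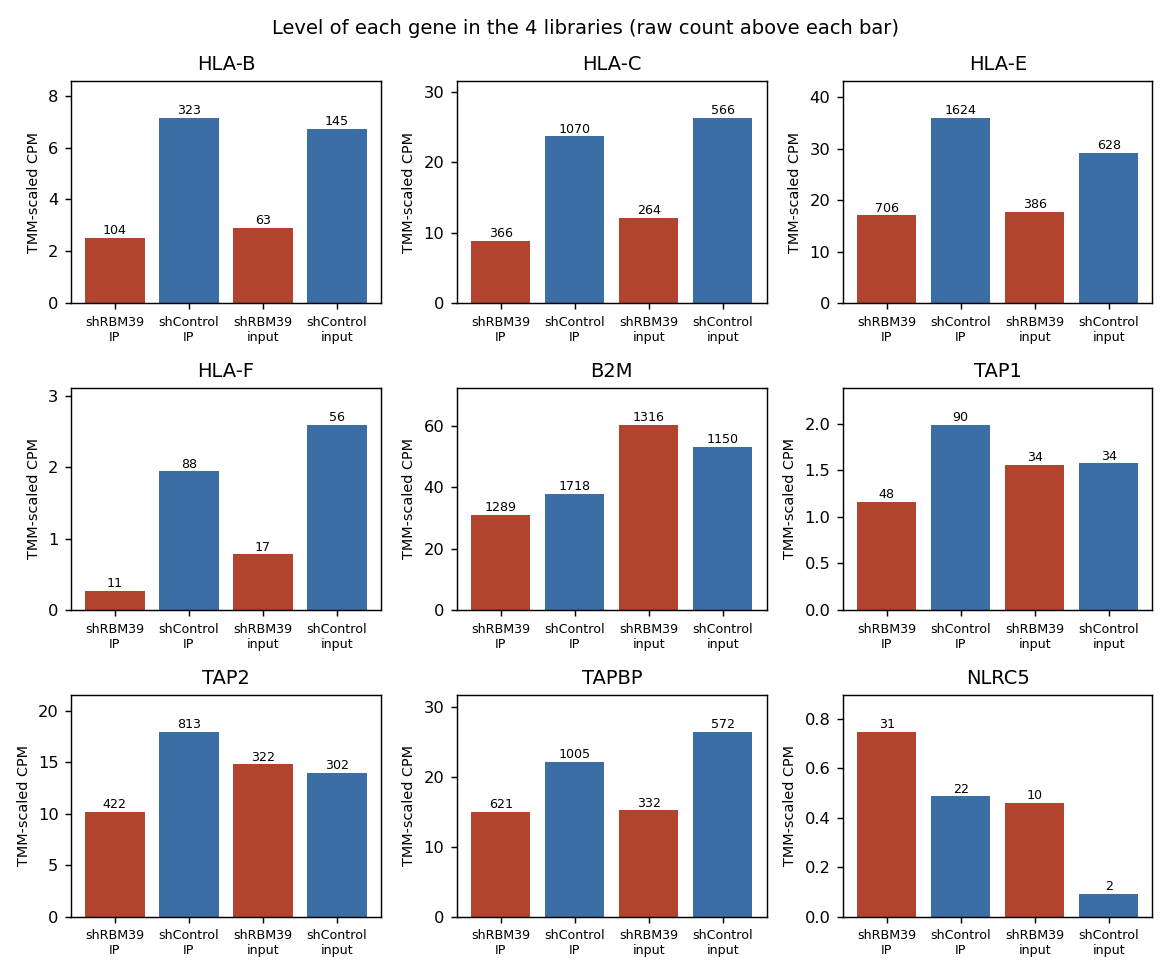
TMM-scaled CPM of each gene in the shRBM39 IP, shControl IP, shRBM39 input and shControl input (1 library each, raw counts above the bars, each axis from 0). HLA-B, HLA-C, HLA-E, HLA-F and TAPBP are lower in shRBM39 than shControl libraries in both fractions, while B2M, TAP1 and TAP2 differ little between inputs.

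HLA heavy chains are close paralogs, and counting can divide their reads among genes and pseudogenes. The pseudogene HLA-H had 291 counts in the shRBM39 input and 264 in the shControl input (log2 0.13, -0.12 to 0.37). Summed over 10 class I genes and pseudogenes, HLA-B, HLA-C, HLA-E and HLA-F included, the counts were 1090 in the shRBM39 input and 1761 in the shControl input, a log2 ratio of -0.71 (-0.82 to -0.60) that did not reach 2-fold. Summed without HLA-H, they were 799 and 1497, a log2 ratio of -0.92 (-1.04 to -0.79). These sums do not cover every class I gene, and how far the assignment of reads between paralogs contributes to the calls of HLA-B, HLA-C and HLA-F was not tested. HLA-F also overlaps the antisense HLA-F-AS1, which had 24 counts in the shRBM39 input and 67 in the shControl input (log2 -1.48, -2.23 to -0.80), and without a known strand setting the reads of these 2 genes cannot be told apart. The pseudogene RPL23AP1, which also overlaps HLA-F, had 4 counts in the shRBM39 input and 19 in the shControl input (log2 -2.13, -4.28 to -0.67). TAP1 overlaps PSMB8-AS1, with 4 and 9 counts in these inputs.

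Several ligands of natural killer cells, from a list chosen with earlier results of these data known, were also lower in the shRBM39 input. Among 14 compared members of a list of class I-like genes, HLA pseudogenes and ligands of natural killer cells, 5 were called lower in the shRBM39 input (5.74% of all features were) and 0 higher (5.1%), with a median of -0.52. They were the stress ligands of the receptor NKG2D, MICA (14 counts in shRBM39, 57 in shControl; log2 -2.0), ULBP2 (20 and 62; -1.62), ULBP1 (20 and 52; -1.37) and MICB (111 and 249; -1.18), and the lipid-mobilising class I-like protein AZGP1 (16 and 36; -1.16). MICA and MICB lie in the same stretch of chromosome 6 as the HLA genes, and the ULBP genes do not. Of the HLA class II list, 9 of 14 genes did not pass the count minimum. HLA-DRA had 0 counts in every library, which allows up to 0.138 CPM in the shRBM39 input and 0.139 CPM in the shControl input at a floor of 3 counts. The peptide editor subunit HLA-DMB (42 counts in shRBM39, 14 in shControl; log2 1.54) and the protease CTSS (101 and 44; 1.18) were called higher.

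The list of RFX, NF-Y, CREB and other class I promoter factors, which also holds coactivators and an importin, showed 0 calls in either direction among 18 compared genes, with a median of -0.05. Of all features, 5.1% were called higher and 5.74% lower. The ratios of the list were not all near 0, running from -0.997 to 0.91. Of their intervals 5 lay above 0 and 6 below, and the share of all features with such intervals is not given. The RFX complex subunits had log2 ratios of -0.24 (-0.37 to -0.11) for RFX5, 0.26 (-0.14 to 0.67) for RFXAP and 0.00 (-0.22 to 0.22) for RFXANK. RFX1, the RFX gene of the series title, had 55 counts in the shRBM39 input and 70 in the shControl input. NFYA, NFYB and NFYC, the NF-Y subunits, stood at 0.45, -0.26 and 0.15, and CREB1 at -0.27. RFX2 (-0.997, -1.45 to -0.57) lay just short of 2-fold, and RFX3 stood at -0.67 (-0.94 to -0.41). At the upper end were the importin KPNA2 at 0.91 (0.83 to 0.99) and the acetyltransferase CREBBP at 0.63 (0.56 to 0.70).

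Several interferon signalling genes were higher in the shRBM39 input and others lower. Among those upstream of class I, 15 intervals lay above 0 and 4 below, a tally with no share of all features to set beside it. IFNAR1 (25.1 CPM in shRBM39, 38.2 in shControl) and IFNGR2 (17.0 and 27.5 CPM) were on the low side. Of all features, 5.1% were called higher and 5.74% lower in this comparison. Of 25 genes upstream of class I, 3 were called higher and 0 lower, with a median of 0.39: the feedback inhibitor SOCS3 (84 counts in shRBM39, 18 in shControl; log2 2.18, 1.46 to 3.03), the signal transducer STAT2 (171 and 64; 1.40, 0.98 to 1.84) and the transcription factor IRF1 (274 and 130; 1.06, 0.76 to 1.37), which binds the IRF core. Of 32 interferon-stimulated genes compared, 4 were called higher, namely GBP1 (80 counts in shRBM39, 20 in shControl; log2 1.96), IFIT3 (1.34), LGALS3BP (1.26) and IFIT1 (1.06), and UBE2L6, the conjugating enzyme for ISG15, was called lower (348 and 753 counts; -1.13), with a median of 0.46. The 23 other peptide-loading and proteasome genes had 0 calls in this comparison and a median of 0.19, with the immunoproteasome subunits PSMB8 at -0.41 (-0.97 to 0.14), PSMB9 at -0.96 (-2.71 to 0.51) and PSMB10 at -0.63 (-1.07 to -0.21). Among 16 compared checkpoint ligands and genes of class I turnover, CD274, which encodes PD-L1, was called higher with 10 counts in the shRBM39 input and 0 in the shControl input, too few for a ratio.

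**Figure D3:**
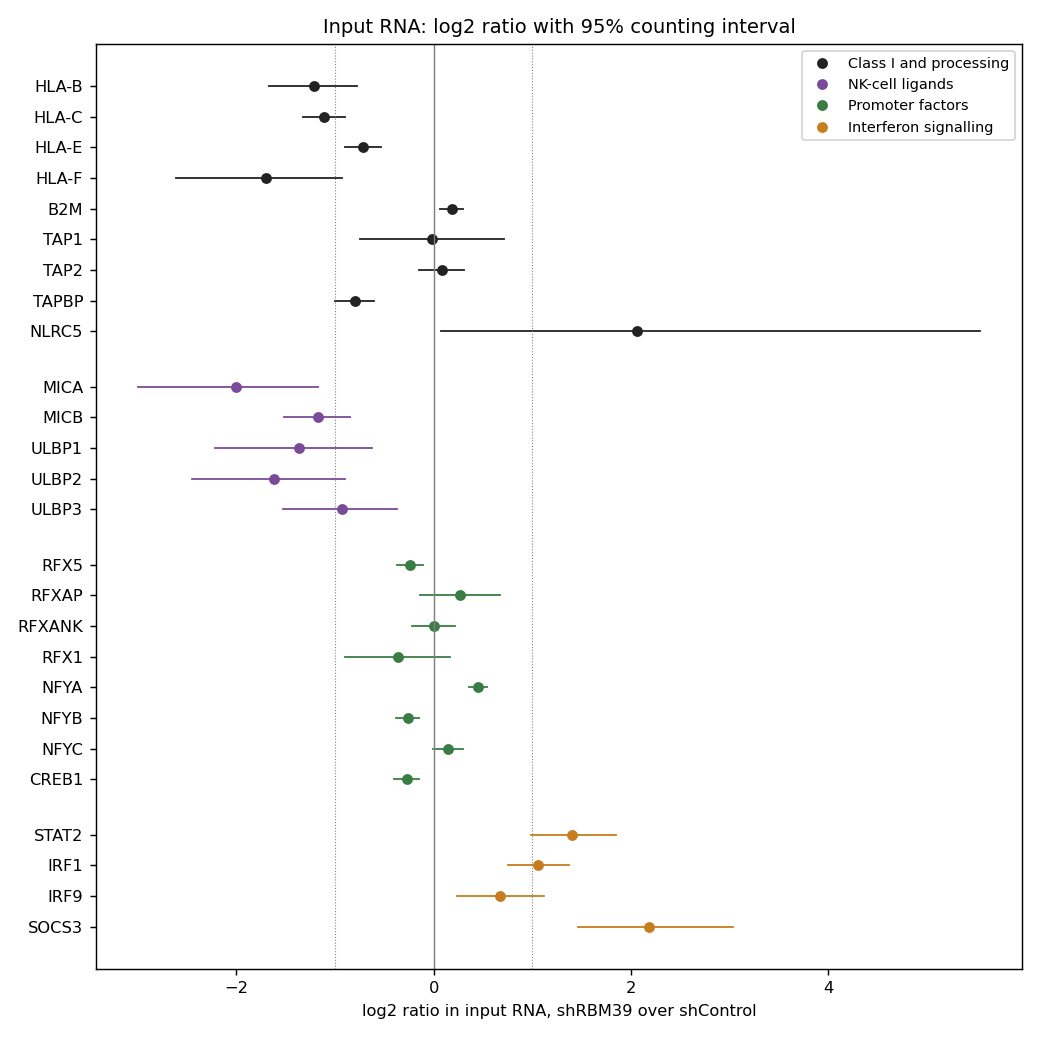
Log2 ratio of shRBM39 over shControl in input RNA (points) with 95% counting intervals (bars) and dotted lines at 2-fold, for the 9 genes and, picked from the lists after their values were seen, ligands of natural killer cells, promoter factors and interferon signalling genes. HLA-B, HLA-C, HLA-F, MICA, MICB, ULBP1 and ULBP2 lie past 2-fold to the left, the 8 promoter factors drawn lie between -0.36 and 0.45, and STAT2, IRF1 and SOCS3 past 2-fold to the right. List members not drawn include RFX2 (-0.997), RFX3 (-0.67), KPNA2 (0.91) and CREBBP (0.63), and the signalling genes IFNAR1 and IFNGR2, which were lower in shRBM39.

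The second question was how much of each transcript was recovered with the RBM39 antibody. In shRBM39 cells most class I and processing transcripts were not above input in the IP: 8 of the 9 log2 ratios were below 0, with a median of -0.44 against 0.02 for all features. With no filter on low counts, whose scaling moved all ratios here by 0.12, HLA-E (0.06) and TAPBP (0.09) lay above 0 and 6 of the 9 below. HLA-F was called lower (9% of all features were), and 0 were called higher (5.29%). HLA-F had 11 counts in the shRBM39 IP and 17 in the shRBM39 input, a log2 ratio of -1.53 (-2.80 to -0.38) that was not called with halved counts (-3.41 to 0.16). B2M stood next, with 1289 counts (31.1 CPM) in the IP and 1316 (60.4 CPM) in the input, a log2 ratio of -0.96 (-1.07 to -0.85); scaled to total counts it was -1.07 and called lower.

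TAP2 had 422 counts in the shRBM39 IP and 322 in the shRBM39 input, a log2 ratio of -0.54 (-0.75 to -0.32). HLA-C had 366 and 264 counts in these libraries (log2 -0.46, -0.69 to -0.22). For HLA-B (104 and 63 counts; -0.21, -0.67 to 0.27), HLA-E (706 and 386; -0.06, -0.24 to 0.13), TAP1 (48 and 34; -0.44, -1.09 to 0.25), TAPBP (621 and 332; -0.03, -0.22 to 0.17) and NLRC5 (31 and 10; 0.66, -0.36 to 1.9) the intervals included 0. RFX1 mRNA, by contrast, had 317 counts in the shRBM39 IP and 55 in its input (log2 1.59, 1.18 to 2.04).

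In shControl cells the recovery was more even around input. The 9 log2 ratios had a median of 0.08 against -0.01 for all features, and 1 gene, NLRC5, was called higher (7.7% of all features were) and 0 lower (11.3%). NLRC5 had 22 and 2 counts in the IP and the input of these cells, a ratio of 4.29 (log2 2.10, 0.37 to 5.52) that was not called with halved counts (-0.39 to 7.82). B2M was again on the low side, with 1718 counts (38.0 CPM) in the IP and 1150 (53.3 CPM) in the input, a log2 ratio of -0.49 (-0.60 to -0.38).

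TAP2 stood at 813 counts in the IP and 302 in the input (log2 0.36, 0.17 to 0.56), and HLA-E 1624 and 628 (0.30, 0.17 to 0.44). TAPBP had 1005 and 572 counts (-0.26, -0.40 to -0.10). For HLA-B (323 and 145; 0.08, -0.20 to 0.38), HLA-C (1070 and 566; -0.15, -0.30 to 0.00), HLA-F (88 and 56; -0.42, -0.92 to 0.09) and TAP1 (90 and 34; 0.32, -0.25 to 0.95) the intervals included or touched 0. All of these ratios were within 1.4-fold of input.

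**Figure D4:**
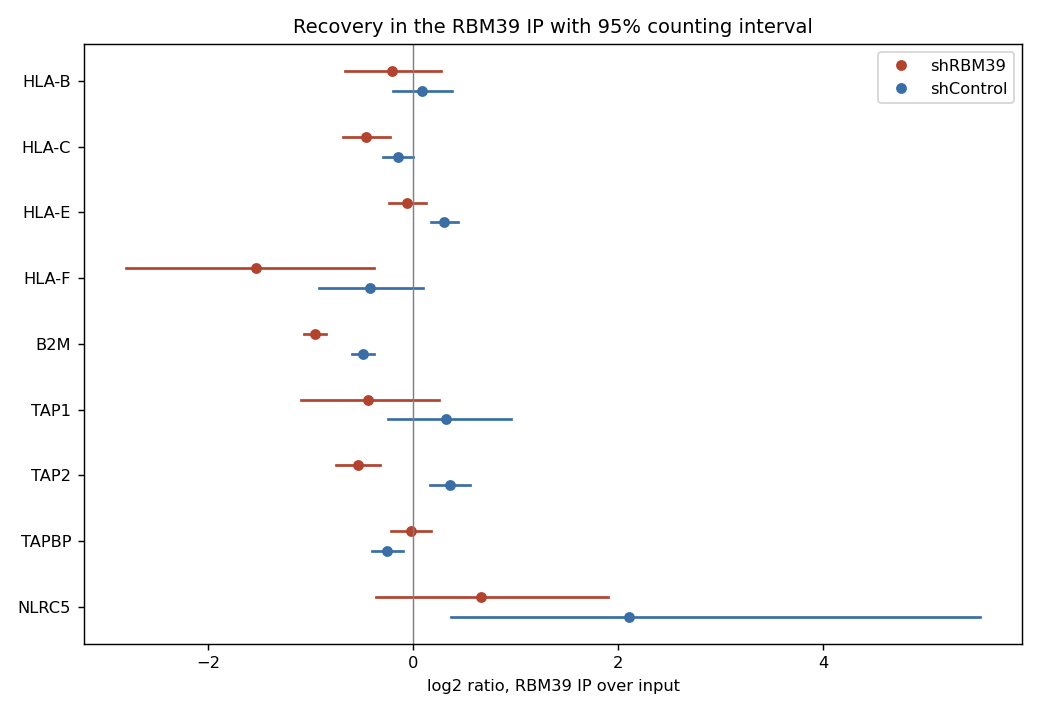
Log2 ratio of RBM39 IP over input in shRBM39 (red) and shControl (blue) cells with 95% counting intervals. B2M lies below 0 in both cultures, TAP2 lies below 0 in shRBM39 and above 0 in shControl cells, and the NLRC5 interval in shControl cells is the widest.

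The third comparison set the recovery in shRBM39 cells against that in shControl cells. The difference of the log2 ratios was negative for 8 of the 9 genes, with a median of -0.47 against 0.00 for all features, and 0 of 9 passed 2-fold with an interval excluding 0 (2.74% of all features were called lower and 4.39% higher). The intervals that excluded 0 were those of TAP2 (-0.90, -1.18 to -0.61), B2M (-0.47, -0.62 to -0.31), HLA-E (-0.36, -0.58 to -0.14) and HLA-C (-0.31, -0.58 to -0.04). With halved counts the HLA-C interval included 0 (-0.69 to 0.08), and those of TAP2, B2M and HLA-E did not. TAPBP was the exception in sign (0.23, -0.01 to 0.47). HLA-F (-1.11, -2.29 to 0.06), NLRC5 (-1.45, -3.58 to 0.69), TAP1 (-0.76, -1.61 to 0.09) and HLA-B (-0.29, -0.83 to 0.24) had intervals that included 0. With libraries scaled to total counts the median of all features moved by -0.19 in this comparison, and 2 of the 9 genes were then called lower.

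Other genes of the pathway were recovered unevenly in the shRBM39 IP. Of the 23 other peptide-loading and proteasome genes, 5 were called lower in that IP against its own input and 0 higher: PDIA3 (log2 -1.33), the disulfide isomerase of the loading complex, CANX (-1.32), the lectin calnexin, the chaperone HSPA5 (-1.30), the glucosidase subunit GANAB (-1.23) and the glycoprotein folding sensor UGGT1 (-1.14). Calreticulin (CALR), also a lectin chaperone, stood at -0.63 (-0.65 to -0.61), and the peptidases LNPEP at -0.90 (-1.10 to -0.69) and ERAP1 at -0.83 (-0.98 to -0.68), none of them past 2-fold. In the shControl IP, 3 were called lower, ERAP2 (2 counts in the IP, 10 in the input), PSMB9 (6 and 12) and LNPEP (log2 -1.14), and the peptidase THOP1 was called higher (1.42). CANX (-0.87, -0.89 to -0.85), UGGT1 (-0.76) and PDIA3 (-0.61) were also below input in the shControl IP, short of 2-fold. Over the 23 genes, 12 intervals lay below 0 and 10 above in that IP, again without a share of all features to set beside them. In the difference, GANAB was called lower (-1.08) and PSMB9 higher (2.14, 0.22 to 4.06, on 6 to 13 counts per library). Of the 25 interferon and NF-kB signalling genes, IFNAR1 (-1.20), IL10RB (-1.13) and IFNGR2 (-1.08) were called lower in the shControl IP, and IRF1 (1.35), SOCS3 (1.25), RELB (1.23), NFKB2 (1.20), SOCS1 (1.13) and TYK2 (1.07) higher. In the shRBM39 IP, IFNGR2 (-1.16) and TYK2 (1.08) were called among those 25 genes. Of the promoter factors, RFX1 was the 1 of 18 called in either IP. Among all features, 9% were called lower and 5.29% higher in the shRBM39 IP, and 11.3% lower and 7.7% higher in the shControl IP. In the difference the shares were 2.74% lower and 4.39% higher.

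Of the interferon-stimulated genes, IFIH1 (log2 1.78), HERC5 (1.25), IFITM2 (1.25) and TRIM21 (1.02) were called higher and TRIM22 (-1.32) lower in the shControl IP. HERC5 (1.01) was called higher in the shRBM39 IP, and IFIH1 (-1.09) was called lower in the difference. The IFITM2 call rests on 32 counts in the shControl IP and 6 in its input, and that of TRIM22 on 15 and 18. Among class I-like genes, ULBP1 (-1.89) and ULBP3 (-1.08) were called lower in the shRBM39 IP and ULBP1 (-1.07) in the shControl IP, while the pseudogene HLA-K was called higher in both, at 1.12 in shRBM39 and 2.72 in shControl cells. In the class II list, CTSS was called lower in the shRBM39 IP (-1.47) and in the difference (-1.07). In the shControl IP, CD74 (-1.40) was called lower, on 11 counts against 14 in the input, and HLA-DMA (1.07) higher, on 37 against 8. In the checkpoint and turnover list, CD47, the signal that restrains phagocytes, was called lower in both IPs, at -1.76 in shRBM39 and -1.80 in shControl cells. SEL1L (-1.54), ICAM1 (-1.27) and PVR (-1.10) were also called lower and TMEM129 (1.04) higher in the shRBM39 IP, and DERL2 (-1.12) lower in the shControl IP. CD274 had 1 and 14 counts in the shRBM39 and shControl IPs. The shares of all features called in these comparisons are those given above for the other pathway genes.

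The one comparison with more than 1 library on a side set the 2 IPs against the 2 inputs, with culture as a term, in edgeR's quasi-likelihood test. B2M was lower in the IPs, by 1.65-fold (log2 -0.72, Benjamini-Hochberg adjusted p = 0.00108), and in both cultures; 17.6% of all features were called lower and 19.3% higher. B2M was 1 of 9 genes called. The other 8 had adjusted p from edgeR of 0.146 for HLA-F (log2 -0.79), 0.152 for NLRC5 (1.26), 0.168 for HLA-C (-0.29), and 0.508 to 0.956 for TAPBP, HLA-E, TAP2, HLA-B and TAP1. With 1 residual degree of freedom, the model takes any real difference in recovery between the cultures as error. Without the culture term edgeR gave B2M an adjusted p of 0.162, with 0 features called in all against 4143 at an unadjusted p under 0.05.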

How the data were processed

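RIP-seq libraries of 1 cell line were analysed from raw counts per gene symbol, deposited by the authors as whole numbers with no normalization. The submitters' processing notes name HISAT2 2.0.4, StringTie 1.3.4d, cutadapt 1.9 and hg38 without their roles. Which program counted the reads, its annotation and its strand setting are not stated in the labels. The members and gene lists were chosen with earlier results of these data known.

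Features reaching 10 counts in 2 libraries or more were kept, with TMM factors from edgeR 4.0.16 (R 4.3.3). Log2 ratios used an added count of 0.5 and exact conditional 95% intervals (scipy 1.17.1), or, for the difference of ratios, an interval from the counting standard error. edgeR's quasi-likelihood test of IP against input was adjusted by Benjamini-Hochberg at 0.05, with DESeq2 1.42.0 as an alternative. The edgeR test and the calls of a higher IP over input were tested on simulated data. The comparison of inputs, the difference of ratios, the calls of lower ratios and the promoter search were not. From each of 7 gene lists the text may name every called member and, per comparison, the 4 largest ratios among members with at least 100 summed counts; the RFX, NF-Y and CREB1 genes, CALR, ERAP1, the immunoproteasome subunits, HLA-H and the genes overlapping members were named after their values were seen. Positions and promoters are from RefSeq (GRCh38.p14), and promoters were aligned with Biopython 1.88. Some class I and interferon signalling results are not reported here.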

Additional observations from a re-analysis of the deposited data

Results flagged for a closer look

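For 4 genes the ratio of RBM39 IP over input lay on opposite sides of 0 in the 2 cultures. The difference between the cultures was not tested, since each group has 1 library. TAP2 stood at -0.54 in shRBM39 and 0.36 in shControl cells on the log2 scale, a difference of -0.90 (-1.18 to -0.61), and both of its single intervals excluded 0. For TAP1 the ratios were -0.44 in shRBM39 and 0.32 in shControl cells, a difference of -0.76 (-1.61 to 0.09). HLA-E stood at -0.06 in shRBM39 and 0.30 in shControl cells, a difference of -0.36 (-0.58 to -0.14). HLA-B stood at -0.21 in shRBM39 and 0.08 in shControl cells, a difference of -0.29 (-0.83 to 0.24). The 4 genes kept these signs with libraries scaled to total counts. With no filter on low counts HLA-B, TAP1 and TAP2 kept them, but HLA-E lay above 0 in both cultures, at 0.06 in shRBM39 and 0.39 in shControl cells.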

How the results depend on the processing

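HLA-B, HLA-C and HLA-F were called lower in the shRBM39 input under TMM, total-count and DESeq2 scaling, with an added count of 2, with no filter and with halved counts; a minimum of 20 counts in all libraries leaves out HLA-F and NLRC5. The 1 gene called higher there, NLRC5, became 0 with total counts, with that stricter minimum and with halved counts. In the shRBM39 IP the 1 gene called lower became 2 with total counts and 0 with the stricter minimum or halved counts. In the shControl IP the 1 called higher became 0 with the stricter minimum or halved counts. In the difference, 2 genes instead of 0 were called lower with total counts. In edgeR's test the 1 call, B2M, became 0 without the culture term; its adjusted p was 0.000285 to 0.00636 in the other alternatives. Over all features, halved counts gave 737 higher and 687 lower in the shRBM39 input instead of 979 and 1102, and total counts moved the splits to 768 and 1304 there, 718 and 2164 (instead of 1016 and 1729) in the shRBM39 IP, 1876 and 1862 (instead of 1479 and 2173) in the shControl IP, and 570 and 887 (instead of 843 and 526) in the difference. edgeR called 7079 features, against 4695 by DESeq2 and 0 without the culture term. Summing 10 class I HLA features, an alternative chosen after seeing the data, gave an input ratio of -0.71, short of 2-fold, in place of those of HLA-B, HLA-C and HLA-F. The culture term ties each IP to the input of its own culture; between the cultures there was 1 library per group and nothing to pair. With no filter, the shRBM39 ratios of IP over input of HLA-E (0.06) and TAPBP (0.09) turned above 0. Counts under about 20 per library limit NLRC5 and HLA-F.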

Other observations

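The 7 members on chromosome 6 span 29723434 to 33314078. In that stretch 112 other features were compared, located through their RefSeq symbols. In input RNA 10 of them (8.93%) were called lower in shRBM39 cells and 8 (7.14%) higher, and in the rest of chromosome 6 the shares were 5.63% each way. HLA-F-AS1 and RPL23AP1, which overlap HLA-F, were among those called lower, so their calls may rest on reads shared with it. Those called lower included the collagen receptor DDR1 (48 counts in shRBM39, 124 in shControl; log2 -1.37), the lymphotoxin subunit LTB (27 and 67; -1.31) and MICA and MICB, and those called higher included the ubiquitin ligase TRIM31 (936 and 267; 1.79) and the heat shock protein HSPA1A (1351 and 545; 1.295). In the IPs these 112 features had median log2 ratios over input of 0.35 in shRBM39 and 0.36 in shControl cells, against -0.14 and -0.11 in the rest of chromosome 6.

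The 5 features whose 4 centred log2 CPM values lay nearest to the median profile of the 9 genes were PDK3, SLC35E2, TOMM6, RP11-219B4.3 and ZNRD1ASP, at Euclidean distances of 0.080 to 0.101. The 9 genes themselves lay 0.233 (HLA-E) to 2.58 (NLRC5) from that median. Because the 5 features were picked for being nearest, their smaller distances say nothing about the 9 genes.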
